A study of Mus musculus with 696 samples.

Results

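Lrig1 and the genes of the epidermal growth factor (EGF) receptor system were followed in the single-cell transcriptomes of the Lrig1 lineage of mouse tail epidermis through 2 consecutive wounds. The set was chosen by gene name and holds 10 of the 15652 genes in the count table. It consists of the receptor inhibitor Lrig1, the 3 receptors Egfr, Erbb2 and Erbb3, and the 6 ligands Areg, Ereg, Hbegf, Tgfa, Btc and Epgn. All 10 genes passed the filter on low counts that left 13853 genes for testing. The cells came from female Lrig1-EGFP-ires-CreERT2 mice that also carried Rosa26-fl/STOP/fl-tdTomato, on a mixed CBA and C57BL/6 background. Hydroxytamoxifen was put on the tail skin once, 1 week before the first full-thickness wound, which was made at an age of 7 to 9 weeks. Cells were collected at 4 time points, which are unwounded homeostatic skin (0w), the early healing a week past the initial injury (1w), the healed skin at week 8 (8w), and the healing a week past a second injury in the same place (9w). Each time point had 2 plates of sorted tdTomato+ cells, taken from a zone with both the wound bed and more distant follicles, and there were 696 cells in all. Unwounded cells carried the same alleles and had received the same labelling. The driver sits in the Lrig1 gene itself, and tdTomato marks descent from a cell that once made Lrig1, so a sorted cell need not express Lrig1 at the time of collection (Lrig1 GL cells, for genetically labelled). Whether transcripts of the allele that carries the driver add to the Lrig1 counts is not given in the sources used here, so each Lrig1 level, share and Lrig1-positive class may hold reads from it.

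The receptors of this family are tyrosine kinases of the cell surface that work in pairs. Areg, Ereg, Hbegf, Tgfa, Btc and Epgn are made as membrane proteins and released by shedding proteases, and they bind Egfr; Hbegf, Btc and Ereg can also bind Erbb4. Erbb2 has no known ligand of its own, while Erbb3 binds neuregulins and has little kinase activity, and both signal as partners of the other receptors. Lrig1 is a transmembrane protein that lowers the amount of these receptors, and in skin it marks stem cells of the follicle junctional zone, the region below the infundibulum next to the sebaceous gland. In keratinocytes, Egfr ligands are known for roles in migration and proliferation after wounding.

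Plates held 79 to 91 cells and 12293182 to 19760820 counts. The median cell had 132595 counts and 4470 genes, and the median share of mitochondrial counts was 22.7 and 30.7% on the plates of 0w, 17.9 and 23.9% at 1w, 18.2 and 22.1% at 8w, and 14.3 and 13.0% at 9w. Both plates of 9w thus lay below the 6 others, and the part of this in the differences at 9w was not tested. Where cells were compared for having a gene or not, each cell was thinned at random to 50000 counts, which kept 560 cells and left out 136. Between 50 and 77 cells a plate remained, the fewest on 8w plate 2. On that plate 1 cell held 12.1% of all counts, the largest such share of the 8 plates. Summed keratinocyte markers lay between 8523 and 23815 CPM (the counts of a gene relative to the total of its plate, scaled with TMM factors) on every plate. Immune markers (4 of 6 in the table) summed to 0.270 to 33.7 CPM, fibroblast markers (5 of 6) to 0.586 to 25.4 CPM and melanocyte markers (2 of 4) to 1.44 to 6.59 CPM. Of the endothelial markers, Kdr was at or below 0.261 CPM on every plate while Pecam1 lay between 109 and 1846 CPM. Per the methods the scRNA-seq was run as 2 independent experiments with several biological replicates in each, but the labels tie no plate to an experiment or an animal, so p-values measure the spread between plates. The titles also carry a Rep letter that both plates of a time point share and that differs between time points (C at 0w, G at 1w, B at 8w and F at 9w). The labels do not say what it stands for or whether the plates of a time point were separate preparations, and whatever the letter marks cannot be told apart from the time point.

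The genes of 4 ligands are neighbours. Epgn (chr5:91027464-91035215), Ereg (chr5:91074622-91093646), Areg (chr5:91139599-91148432) and Btc (chr5:91357261-91402994) lie within 375531 bases of mouse chromosome 5 (GRCm38, GENCODE M21), Btc on the minus strand and the others on the plus strand. Lrig1 is on the minus strand of chr6:94604529-94700158, Tgfa on the plus strand of chr6:86195223-86275719, Egfr on the plus strand of chr11:16752203-16918158, Erbb2 on the plus strand of chr11:98412470-98437716 and Erbb3 on the minus strand of chr10:128567523-128589652. RefSeq promoter sequences (GRCm38.p6) were at hand for 7 of the 10 genes. The 3 chromosome 5 ligands among them are shown because both plates of 1w lay above both plates of 0w for each of them, and Lrig1 and Egfr are shown as the inhibitor and its main receptor. Each sequence reads 5′ to 3′ toward the gene, holds up to 250 bases before the RefSeq start and stops before the annotated gene body. Capitals mark the motifs TATAAA and GGGCGG on either strand, which do not overlap each other here. The motif TGANTCA was searched on both strands as well and is in none of the 7 sequences.
Epgn chr5:91027267-91027463: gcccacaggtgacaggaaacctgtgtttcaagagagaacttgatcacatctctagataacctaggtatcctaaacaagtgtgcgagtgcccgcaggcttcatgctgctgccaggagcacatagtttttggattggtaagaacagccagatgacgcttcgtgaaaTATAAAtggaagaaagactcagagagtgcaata
Areg chr5:91139349-91139598: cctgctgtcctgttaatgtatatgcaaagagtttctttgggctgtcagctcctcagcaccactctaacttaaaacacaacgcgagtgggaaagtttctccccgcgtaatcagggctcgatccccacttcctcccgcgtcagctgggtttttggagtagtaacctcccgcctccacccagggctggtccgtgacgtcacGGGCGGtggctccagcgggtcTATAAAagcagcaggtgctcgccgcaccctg
Btc chr5:91402995-91403244: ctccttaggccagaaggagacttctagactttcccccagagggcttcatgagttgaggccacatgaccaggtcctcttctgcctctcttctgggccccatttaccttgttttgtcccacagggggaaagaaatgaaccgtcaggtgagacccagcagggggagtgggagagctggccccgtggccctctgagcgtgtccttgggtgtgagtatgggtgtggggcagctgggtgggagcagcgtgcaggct
Lrig1 chr6:94700159-94700395: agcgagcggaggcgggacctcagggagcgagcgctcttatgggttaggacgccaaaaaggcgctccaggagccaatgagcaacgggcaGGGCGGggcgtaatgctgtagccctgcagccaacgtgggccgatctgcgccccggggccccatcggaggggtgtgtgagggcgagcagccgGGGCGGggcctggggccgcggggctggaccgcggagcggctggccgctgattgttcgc
Egfr chr11:16751953-16752202: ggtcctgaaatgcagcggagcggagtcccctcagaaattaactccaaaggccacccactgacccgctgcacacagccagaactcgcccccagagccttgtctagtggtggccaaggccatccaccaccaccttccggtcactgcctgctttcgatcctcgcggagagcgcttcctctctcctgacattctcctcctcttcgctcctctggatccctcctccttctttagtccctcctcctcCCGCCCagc
Epgn and Areg each hold 1 TATAAA, which is in 12.4% of all 32851 promoter windows of 250 bases, and Btc holds none of the 3 motifs. GGGCGG occurs in 32.7% of the windows, and TGANTCA in 6.75%. Lrig1 has 2 GGGCGG and the highest G and C content of these sequences, 71.7%, while Epgn has the lowest, 45.7%; the median over all promoter windows is 52.4%.

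To compare the genes with each other, levels were divided by the length of the longest protein-coding transcript. On this scale of CPM per kilobase, Egfr was the most abundant gene over the 8 plates with 18.4 ± 6.92 (SD, n = 8 plates), ranging from 9.50 to 27.1. Hbegf came next with 11.1 ± 5.96. Epgn, Erbb3, Erbb2 and Areg followed with means of 7.51, 7.17, 7.09 and 7.06 CPM per kilobase, then Lrig1 with 6.18 ± 1.74, Tgfa with 4.55 ± 3.23, Btc with 3.37 ± 2.27 and Ereg with 1.83 ± 3.52. The plate ranges of all neighbours in this order overlapped. The order also changed with time, since Epgn stood at 0.0613 ± 0.0867 CPM per kilobase at 0w and at 21.2 ± 6.23 at 1w (SD, n = 2 plates each).

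**Figure D1:**
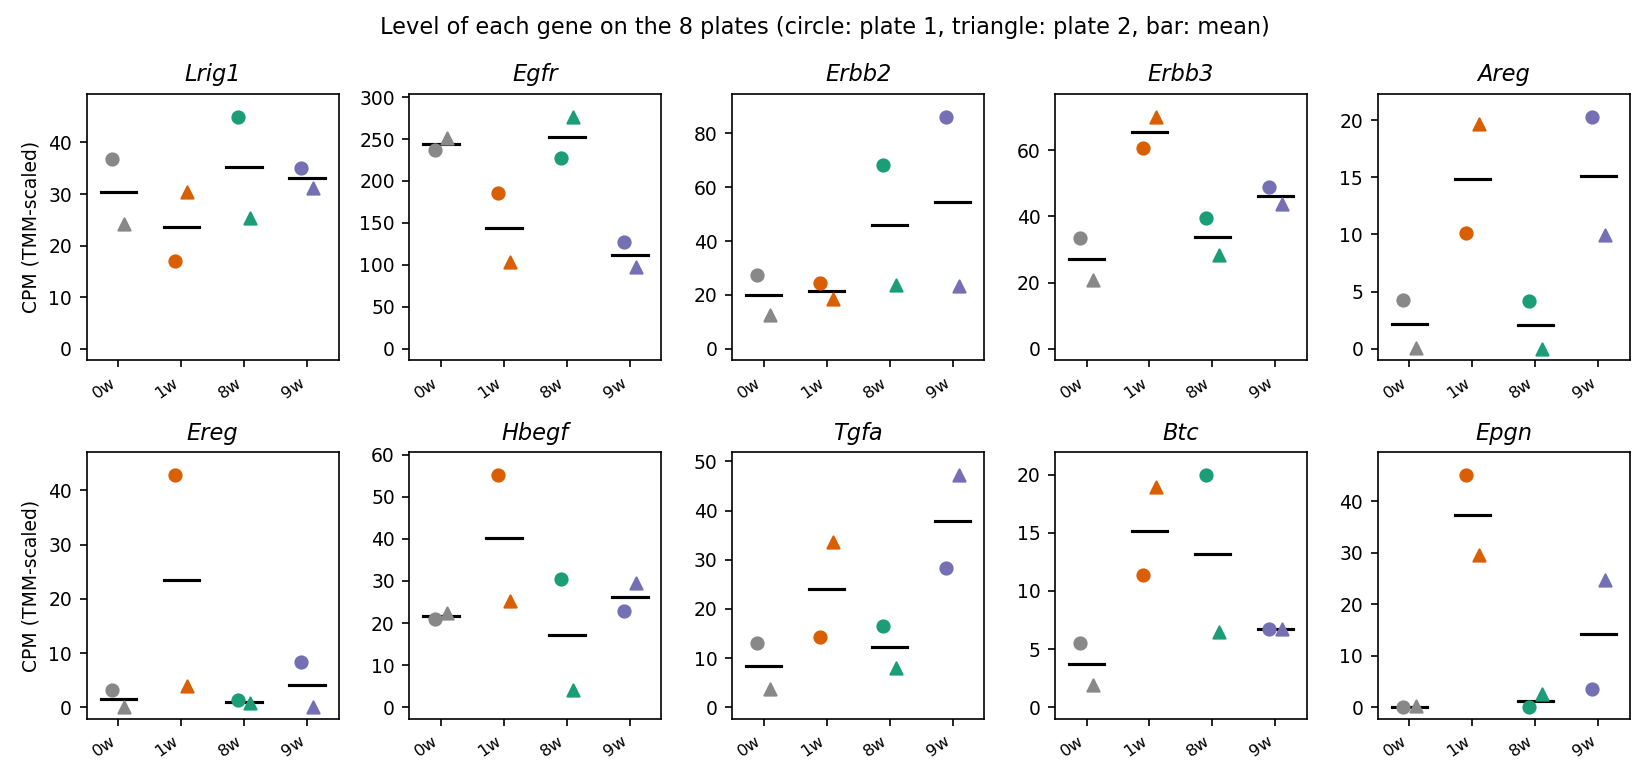
Level of each of the 10 genes (y axis, CPM scaled by TMM, linear and starting near 0) on the 2 plates of each time point (x axis); points are plates and bars are means of 2 plates. Egfr was lower on all plates of 1w and 9w than on those of 0w and 8w, and Erbb3, Areg and Epgn were higher; Epgn lay at 0 and 0.216 CPM at 0w and at 45.0 and 29.5 CPM at 1w.

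The time points were compared gene by gene with edgeR on counts summed per plate, and a gene was called at an adjusted p below 0.05 with a fold change above 2. None of the 10 genes was called in any of the 5 comparisons. At 1w against 0w, 73 of all 13853 genes tested were called (0.527%), and 11.5% had an unadjusted p below 0.05 against 3 of the 10 genes here (Epgn, Erbb3 and Btc). At 9w against 0w the called share was 0.267% and 12.6% had an unadjusted p below 0.05, again against 3 of the 10 (Epgn, Tgfa and Egfr). For 8w against 0w no gene of the table was called by edgeR (0.0%; DESeq2 called 163), 6.47% (896) had an unadjusted p below 0.05, and 1 of the 10 did (Btc). For 9w against 8w the shares were 0.00722% and 7.94%, with 2 of the 10 below 0.05 unadjusted (Egfr and Epgn). DESeq2 called 1 of the 10 at 1w (Epgn), beside 5.29% of the genes to which it gave an adjusted p, and none at 8w or 9w against 0w, for 9w against 8w or for the difference between both healings (beside 1.26, 5.01, 2.15 and 0.529%). With the replicate number of the plate as a block, 5 of the 10 had an unadjusted p below 0.05 at 1w (Erbb3, Areg, Ereg, Btc and Epgn) and 5 at 9w against 0w (Egfr, Erbb2, Areg, Tgfa and Epgn), beside 14.5 and 15.7% of all genes. In the same fit it was 2 at 8w against 0w (Erbb2 and Btc, beside 8.68%), 3 for 9w against 8w (Egfr, Areg and Epgn, beside 10.3%) and 2 for the difference between both healings (Btc and Epgn, beside 6.9%). The fit with the block called 1 of the 10 at 1w (Epgn, beside 1.7% of all genes) and none at 8w or 9w against 0w, for 9w against 8w or for that difference (beside 0.0217, 0.693, 0.0577 and 0.0217%). The results below give levels plate by plate.

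Lrig1 itself differed little between time points beside the spread between plates. It was measured at 36.7 and 24.3 CPM on the 2 plates of 0w, 17.0 and 30.3 CPM at 1w, 45.0 and 25.4 CPM at 8w, and 35.1 and 31.1 CPM at 9w. The ranges of the time points overlapped, except that both plates of 1w lay just below both of 9w. The log2 change against 0w was -0.36 ± 0.55 (SE) at 1w and 0.12 ± 0.55 at 9w (edgeR, adjusted p = 0.881 and 0.959). In bulk sums of this kind, fewer cells with a transcript and less transcript per cell cannot be told apart, and shares of cells are given further on.

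Egfr, the receptor that all 6 ligands bind, was lower on the plates taken a week after each wound. Its level was 236 and 252 CPM at 0w, 185 and 103 CPM at 1w, 227 and 277 CPM at 8w, and 128 and 97.0 CPM at 9w. All 4 plates taken a week after a wound lay below all 4 plates of 0w and 8w, an order that 3.72% of all genes tested also had. The log2 change was -0.76 ± 0.46 at 1w and -1.12 ± 0.46 at 9w against 0w, and -1.17 ± 0.46 at 9w against 8w (edgeR, adjusted p = 0.597, 0.359 and 0.579). The sign held in all 15 settings tried for each of these 3 comparisons. Among the cells of 1 cluster with members on every plate (cluster 7, described below) the corresponding values were -1.40 ± 0.88, -1.45 ± 0.88 and -1.56 ± 0.89 (edgeR, adjusted p = 0.931, 0.793 and 0.767). The plates overlapped in that cluster. Egfr was there at 408 and 88.1 CPM at 0w, 125 and 63.6 CPM at 1w, 119 and 413 CPM at 8w, and 89.2 and 123 CPM at 9w.

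Erbb3, the partner receptor with little kinase activity, was higher on those plates. It stood at 33.5 and 20.8 CPM at 0w, 60.7 and 70.1 CPM at 1w, 39.5 and 28.2 CPM at 8w, and 48.8 and 43.6 CPM at 9w. Its plates of 1w and 9w were all above those of 0w and 8w, as for 4.28% of all genes. The log2 change against 0w was 1.27 ± 0.49 at 1w and 0.77 ± 0.49 at 9w (edgeR, adjusted p = 0.342 and 0.581), and that of 9w against 8w was 0.45 ± 0.49 (adjusted p = 0.849). Erbb2 differed widely between the plates of 8w and of 9w. It was measured at 27.3 and 12.5 CPM at 0w, 24.4 and 18.6 CPM at 1w, 68.3 and 23.6 CPM at 8w, and 86.2 and 23.2 CPM at 9w. Plate 1 was above plate 2 at every time point, the highest values were those of plate 1 at 8w and at 9w, and the ranges of these late time points overlapped with those of 0w. Cluster 6, in which Erbb2 was most frequent (described below), had 11 and 1 cells on plates 1 and 2 of 8w and 21 and 4 cells on those of 9w, and its part in this difference was not tested. The log2 change of Erbb2 against 0w was 0.11 ± 0.75 at 1w and 1.46 ± 0.76 at 9w (edgeR, adjusted p = 0.987 and 0.476), and the value at 9w was 0.21 without plate 1 and 2.14 without plate 2 of 9w.

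Epgn (epigen) had the largest log2 change between time points of the 10 genes. It gave 0 and 4 counts on the 2 plates of 0w, 689 and 504 at 1w, 0 and 40 at 8w, and 51 and 459 at 9w, corresponding to 0 and 0.216, 45.0 and 29.5, 0 and 2.61, and 3.57 and 24.8 CPM. The plates of 1w and 9w all exceeded those of 0w and 8w. The log2 change against 0w was 8.35 ± 1.96 at 1w and 6.96 ± 1.87 at 9w (edgeR, adjusted p = 0.106 and 0.184), and both rest on the 4 counts of 0w. Leaving out a plate gave 7.35 (without plate 1 of 0w) to 12.24 (without plate 2 of 0w) at 1w. At 9w it gave 4.98 (without plate 2 of 9w) to 10.84 (without plate 2 of 0w). With the replicate number as a block the value at 1w was 9.50 with an adjusted p of 0.0319, DESeq2 gave an adjusted p of 0.0171, and over 14 settings the adjusted p ranged from 0.0171 to 0.364. Without plate 1 or without plate 2 of 8w, which enter the comparison through the shared estimate of spread, the adjusted p was 0.0412 and 0.0435. The log2 change of 9w against 8w was 3.43 ± 1.51 (adjusted p = 0.622), with 1.47 without plate 2 of 9w and 10.88 without plate 2 of 8w. Few cells carried these counts: 6 and 5 cells at 1w, where the top cell held 40.3 and 77.6% of the plate's Epgn counts, and 6 and 3 cells at 9w.

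Amphiregulin (Areg) followed the same order of plates. It was found at 4.26 and 0.108 CPM at 0w, 10.1 and 19.6 CPM at 1w, 4.18 and 0 CPM at 8w, and 20.3 and 9.98 CPM at 9w, so that every plate taken a week after a wound was above every other plate. At 0w all Areg counts of each plate came from 1 cell, with 82 counts on plate 1 and 2 counts on plate 2. The log2 change was 2.76 ± 1.68 at 1w and 2.79 ± 1.68 at 9w against 0w, and 2.86 ± 1.69 at 9w against 8w (edgeR, adjusted p = 0.601, 0.546 and 0.714). The size of these changes depended on the setting, with 1.01 at 1w and 0.73 at 9w against 0w when every cell was scaled equally, 10.85 and 9.79 with a stricter filter on cells, 6.98 and 7.01 without plate 1 of 0w, and 11.01 for 9w against 8w without plate 1 of 8w. The direction did as well, since in cluster 7 alone Areg was at -1.94 for 9w against 0w and at -1.41 for 9w against 8w. Epiregulin (Ereg) was the rarest ligand. It was at 3.12 and 0.0539 CPM at 0w, 42.8 and 3.98 CPM at 1w, 1.30 and 0.718 CPM at 8w, and 8.33 and 0 CPM at 9w, and between 67.6 and 100% of the counts of a plate came from a single cell. Its log2 change was 3.88 ± 2.05 at 1w and 1.38 ± 1.88 at 9w against 0w (adjusted p = 0.526 and 0.823). Leaving out a plate gave 1.32 (without plate 1 of 1w) to 8.53 (without plate 1 of 0w) at 1w, and -7.73 (without plate 1 of 9w) to 6.07 (without plate 1 of 0w) at 9w.

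Transforming growth factor alpha (Tgfa) reached its highest level after the second wound. It lay at 13.0 and 3.72 CPM at 0w, 14.3 and 33.6 CPM at 1w, 16.6 and 8.02 CPM at 8w, and 28.4 and 47.2 CPM at 9w. The 2 plates of 9w were above those of 0w and 8w, and overlapped with those of 1w. The log2 change was 1.52 ± 0.76 at 1w and 2.18 ± 0.78 at 9w against 0w, and 1.62 ± 0.76 at 9w against 8w (edgeR, adjusted p = 0.499, 0.290 and 0.643). Its sign was kept in all 15 settings of these comparisons, while leaving out a plate gave 0.79 (without plate 2 of 1w) to 2.65 (without plate 1 of 0w) at 1w, and 1.52 (without plate 2 of 0w) to 3.30 (without plate 1 of 0w) at 9w. Heparin-binding EGF (Hbegf) was at 21.0 and 22.5 CPM at 0w, 55.1 and 25.3 CPM at 1w, 30.5 and 4.11 CPM at 8w, and 22.9 and 29.5 CPM at 9w. Its log2 change against 0w was 0.88 ± 0.81 at 1w and 0.27 ± 0.81 at 9w (adjusted p = 0.763 and 0.935).

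Betacellulin (Btc) had another time course. It stood at 5.56 and 1.89 CPM at 0w, 11.4 and 18.9 CPM at 1w, 19.9 and 6.46 CPM at 8w, and 6.72 and 6.74 CPM at 9w. All later plates were above the 2 plates of 0w, and after the second wound the level was within the range of 8w. The log2 change against 0w was 2.02 ± 0.81 at 1w, 1.82 ± 0.80 at 8w and 0.85 ± 0.78 at 9w (edgeR, adjusted p = 0.355, 0.757 and 0.721). With every cell scaled equally the values were 0.69, 1.18 and 0.16, and without plate 1 of 8w the value at 8w was 0.80. Some of these sums also rest on single cells, since 1 cell held 91.6% of the Btc counts on 0w plate 1 and 93.7% on 1w plate 1.

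Counted over the set, the plates of 1w did not overlap with those of 0w for 8 of the 10 genes, 7 higher and Egfr lower. Over all genes tested, 23.0% were higher and 22.1% lower in this way. At 9w, 6 genes were higher (Erbb3, Areg, Hbegf, Tgfa, Btc and Epgn) and Egfr was lower, against 21.5% and 19.4% of all genes. At 8w, Btc alone was higher and none was lower, against 17.8% and 15.6%. For 9w against 8w, Erbb3, Areg, Tgfa and Epgn were higher and Egfr lower, against 16.8% and 16.3%. The median log2 change of the 10 genes was 1.39 at 1w and 1.12 at 9w against 0w, beside -0.04 and 0.05 over all genes, and the comparisons share their 0w plates.

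The response to both injuries was set side by side by testing the step from 8w to 9w minus the step from 0w to 1w. No gene of the table was called by edgeR (0.0%), with 740 of 13853 (5.34%) at an unadjusted p below 0.05 and 78 called by DESeq2. Of the 10 genes, Btc had an unadjusted p below 0.05, with a difference of -2.99 ± 1.12 on the log2 scale (edgeR, adjusted p = 0.922). The adjusted p of the 10 genes ranged from 0.922 to 1.0.

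Markers of other cell states also differed between the plates of the time points. Wound-activated keratinocyte markers (Krt6a, Krt6b, Krt16, Sprr1b, S100a8 and S100a9) summed to 51.2 and 55.6 CPM at 0w, 27963 and 10884 CPM at 1w, 703 and 390 CPM at 8w, and 2497 and 4102 CPM at 9w, and 4 of the 6 were called higher in each comparison with 0w a week after a wound. Markers of differentiating epidermis went from 3160 and 4014 CPM at 0w to 43804 and 44193 CPM at 1w, 6785 and 5870 CPM at 8w, and 17858 and 29285 CPM at 9w, with 2 and 1 of 8 called higher against 0w. Scale markers summed to 18.5 and 6.2 CPM at 0w, 592 and 366 CPM at 1w, 235 and 93.6 CPM at 8w, and 445 and 1978 CPM at 9w, with 1 of 3 called higher at 1w and at 9w. Sebaceous gland markers summed to 941 and 8084 CPM at 0w, 589 and 588 CPM at 1w, 905 and 4029 CPM at 8w, and 805 and 637 CPM at 9w, with none of 8 called. Upper follicle duct markers summed to 7177 and 13387 CPM at 0w, 23542 and 23746 CPM at 1w, 19480 and 27658 CPM at 8w, and 29569 and 12870 CPM at 9w. Basal markers were lower on both plates of 0w (2234 and 1716 CPM) than on the 6 later plates (3936 to 5524 CPM). Bulge markers were lowest at 1w (494 and 257 CPM) and lay between 636 and 917 CPM on the other plates, and junctional zone markers were highest at 9w (3624 and 2445 CPM, against 693 to 1557 CPM). No gene of these last 4 lists was called at 1w or at 9w against 0w. The part of any of these lists in the levels of the 10 genes was not tested.

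The share of cells with at least 1 count of a gene, after thinning, was then compared between time points. Lrig1 was found in 50.6 and 46.3% of the cells on the plates of 0w, 24.7 and 32.4% at 1w, 46.4 and 38.0% at 8w, and 41.3 and 34.7% at 9w. After this thinning the plates of 1w had the lowest shares and did not overlap with any other time point. Without thinning they stood at 30.3 and 40.5% and overlapped with 8w (54.1 and 36.8%) and 9w (47.7 and 39.6%). At 25000 counts they stood at 20.5 and 28.2% and overlapped with 8w (38.5 and 27.5%) and 9w (32.5 and 23.5%). With at least 5 counts required they were again the lowest, at 8.22 and 10.8%. An exact permutation test over every way to put the 8 plates into pairs gave p = 0.0667 (two-sided, adjusted 0.534 over 15607 genes). This test moves plates freely between the replicate numbers, and a test within the numbers was not run. At the thinning depth used throughout, the Lrig1 share fell in the order 0w, 8w, 9w and 1w on the plates of either number. On plates 2 this order was lost without thinning (48.4, 36.8, 39.6 and 40.5%) and at 25000 counts (33.3, 27.5, 23.5 and 28.2%). Plates 1 kept it in both settings. With at least 5 counts required, 8w lay above 0w on the plates of either number. The permutation p for Lrig1 was 0.314 without thinning, 0.295 at 25000 counts and 0.324 with at least 5 counts required. Counting error alone is wide here, with an exact 95% binomial interval of 39.0 to 62.2% for 0w plate 1 (39 of 77 cells) and of 15.3 to 36.1% for 1w plate 1 (18 of 73 cells). Intervals and limits of this kind cover counting error only, because reads from amplified cDNA without molecular identifiers are not independent molecules.

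Egfr was present in most cells at every time, in 84.2 ± 11.4% at 0w, 72.8 ± 3.59% at 1w, 76.9 ± 4.04% at 8w and 70.7 ± 17.0% at 9w (mean ± SD of 2 plates, exact permutation p = 0.733). The share of Erbb3-positive cells was 37.6 ± 1.73% at 0w, 60.5 ± 8.08% at 1w, 38.0 ± 5.68% at 8w and 55.3 ± 12.3% at 9w (exact permutation p = 0.152). Erbb2 was found in 27.5 ± 5.15% at 0w, 42.9 ± 9.07% at 1w, 43.4 ± 24.7% at 8w and 62.0 ± 29.2% at 9w (exact permutation p = 0.429).

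Epgn was the 1 gene of the 10 with a p below 0.05 in this test, which does not hold the replicate number fixed. Epgn was seen in 0 of 77 and 0 of 67 thinned cells at 0w. A limit taken as 3 counts of the total was 3.90 and 4.48%, and the exact 95% upper limits were 4.68 and 5.36%. These limits apply to detection after thinning, since 2 cells of 0w plate 2 had Epgn counts before it. Epgn was seen in 5 of 73 and 5 of 74 cells at 1w, in 0 of 69 and 1 of 50 cells at 8w, and in 3 of 75 and 3 of 75 cells at 9w. The exact permutation p was 0.0286 (adjusted 0.459), and 9.28% of all genes had a p below 0.05 in this test. The smallest p these arrangements can give is 0.00952, and no gene of the table had an adjusted p below 0.05. Without thinning the Epgn p was 0.0857, and with at least 5 counts required it was 0.286. Areg was positive in 1.30 and 0% of cells at 0w, 8.22 and 14.9% at 1w, 4.35 and 0% at 8w, and 12 and 5.33% at 9w (exact permutation p = 0.133). Hbegf shares averaged 19.3 ± 2.03%, 30.0 ± 6.06%, 13.0 ± 4.20% and 24.0 ± 5.66% over the 4 time points in order (exact permutation p = 0.0762), and those of Tgfa 13.6 ± 6.52%, 22.4 ± 2.67%, 13.0 ± 4.20% and 30.0 ± 10.4% (p = 0.114). Btc was seen in 4.84 ± 0.507%, 9.49 ± 7.61%, 10.8 ± 1.13% and 6.67 ± 0% of cells (exact permutation p = 0.410), and Ereg in means of 0.649 to 4.77% (p = 0.429).

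**Figure D2:**
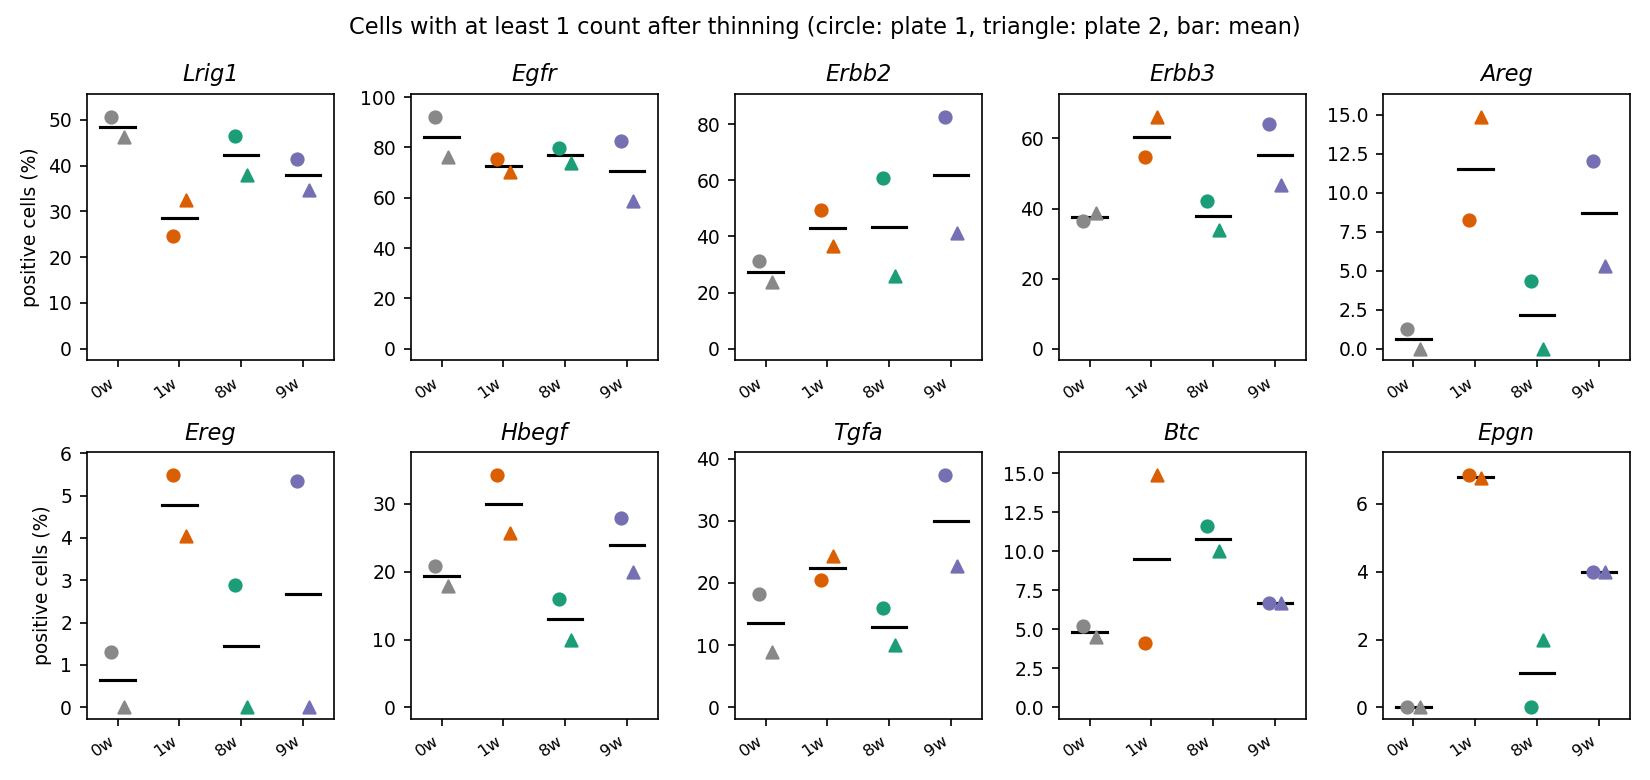
Share of cells with at least 1 count of each gene after thinning every cell to 50000 counts (y axis, %), on the 2 plates of each time point (x axis); bars are means of 2 plates. The Lrig1 share was lowest on the 2 plates of 1w (24.7 and 32.4%), and Epgn was not seen in the thinned cells of 0w.

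In total 213 of the 560 thinned cells (38.0%) had at least 1 of the 6 ligands. By time point the share was 31.8 ± 2.77% at 0w, 43.5 ± 2.34% at 1w, 25.5 ± 4.94% at 8w and 48.0 ± 7.54% at 9w (mean ± SD of 2 plates). Cells with 2 or more ligands made up 4.64 ± 4.45%, 20.4 ± 1.73%, 9.80 ± 2.54% and 18.7 ± 9.43% in the same order. Areg, Epgn and Ereg were found mostly in cells that also had Hbegf or Tgfa. Of the 34 Areg-positive cells, 27 also had Hbegf (79.4%, against 22.1% of all thinned cells) and 21 had Tgfa (61.8%, against 20.4%). Of the 17 Epgn-positive cells, 13 had Hbegf, 9 had Tgfa, 8 had Areg and 6 had Ereg, while none of them had Btc. Of the 14 Ereg-positive cells, 13 had Tgfa and 12 had Hbegf. Of the 44 Btc-positive cells, 21 had Hbegf (47.7%) and 20 had Tgfa (45.5%). These overlaps are descriptions over cells of 8 plates that share their library, and they carry no test.

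To ask which genes mark Lrig1-positive cells, the thinned cells with at least 1 Lrig1 count (220) and those with none (340) were summed within each plate and compared in edgeR with the plate as a block. Of 8488 genes tested, 68 were called at an adjusted p below 0.05 (0.801%), 28 higher (0.33%) and 40 lower (0.471%) in Lrig1-positive cells. The 12 named genes with the largest positive change were Slc15a1, Sema6a, Cgnl1, Apcdd1, Sec14l4, Fbxo32, Anpep, Krt79, Psapl1, Ano9, Skint3 and Foxc1. Krt79, a keratin of the follicle opening and sebaceous duct, was the most abundant of them, with a lowest, median and highest plate of 1796, 7865 and 10233 CPM in Lrig1-positive cells and 579, 2385 and 3101 CPM in Lrig1-negative cells. It was higher in the positive cells on all 8 plates, with a log2 change of 1.62 ± 0.21 (edgeR, adjusted p = 0.00202). Sema6a, a transmembrane semaphorin, was at 29.1, 51.4 and 95.3 CPM against 3.90, 10.9 and 24.3 CPM, so that its ranges over plates did not overlap (log2 change 2.27 ± 0.39, adjusted p = 0.0176). Foxc1, a transcription factor of the upper follicle and sebaceous gland, was at 76.99, 101.4 and 180 CPM against 11.9, 42.7 and 85.0 CPM (1.47 ± 0.24, adjusted p = 0.0104). Slc15a1, a transporter of small peptides, had the largest positive change, 2.50 ± 0.49 (adjusted p = 0.0272, higher on 7 of 8 plates).

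The 12 named genes with the largest negative change were Krt2, Skint6, Mt4, Ly6c1, Serpinb12, Cstdc5, Krt1, Stfa3, Calm5, Il1f9, Ly6a and Klk8. Krt2 and Krt1 are keratins of suprabasal epidermis. Krt1 had a lowest, median and highest plate of 4.40, 271 and 1673 CPM in Lrig1-positive cells and of 273, 3346 and 10420 CPM in Lrig1-negative cells, a log2 change of -3.94 ± 0.41 (edgeR, adjusted p = 0.00059, lower on 8 of 8 plates). The median of Krt2 was 4.30 CPM in positive and 2374 CPM in negative cells (-7.97 ± 0.97, adjusted p = 0.00145). Mt4, a metallothionein of differentiating tail epidermis, was at medians of 13.7 and 444 CPM (-4.91 ± 0.55, adjusted p = 0.00059). Ly6a encodes Sca-1, a surface protein of upper follicle and interfollicular keratinocytes, and was at medians of 38.6 and 197 CPM (-2.58 ± 0.40, adjusted p = 0.00816). All 24 calls held when DESeq2 was used, while 11 held with cells at full depth, 15 with cells thinned to 25000 counts, 16 when a positive cell needed at least 5 counts, and 6 with no block on the plate. When each plate was left out in turn, 11 of the 24 kept their call every time (Krt79, Ano9, Skint3, Foxc1, Krt2, Mt4, Ly6c1, Krt1, Stfa3, Il1f9 and Ly6a), while Sema6a kept it in 6 of 8 and Slc15a1 in 2 of 8 such fits, with adjusted p-values of up to 0.0624 and 0.0984.

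By marker list, 6 of 6 upper follicle duct markers had a positive log2 change in Lrig1-positive cells, 2 of them called, and their median was 1.31 beside -0.03 over all genes. Of 4 tested junctional zone markers 1 was called higher, with a median of 0.95. All 5 tested wound-activated markers had a negative change, 3 of them called lower (median -3.05), and 4 of 7 tested markers of differentiating epidermis were called lower (Krt1, Krt10, Krtdap and Calm4; median of the 7 -0.87). The remaining 3 of these 7 had values above 0, Dsg1a at 0.02, Sbsn at 0.14 and Ivl at 0.90, and were not called. Of 6 tested keratinocyte markers 1 was called higher, with a median of 0.03 over the list. Basal markers had a median of -0.49, bulge markers of 0.08, sebaceous gland markers of -0.41 and cycling markers of -1.86, with none called. Mt4 was the single scale marker tested and was called lower. The endothelial list had 1 gene tested (-0.10), and no gene of the immune, fibroblast, melanocyte or Merkel lists passed the filter. What these markers contribute to differences of the receptors and ligands between the 2 classes of cells was not tested. The 5 genes whose levels went with Lrig1 most closely across the thinned cells of a plate, of 6431 genes detected in at least 20% of cells, were Sema6a, Egr2, Adgrl2, Krt79 and Ano9, with a mean Spearman correlation over 8 plates of 0.397, 0.383, 0.381, 0.374 and 0.372. Erbb3 was at place 164 of this order (0.181), Erbb2 at 179 (0.176), Tgfa at 770 (0.103), Egfr at 1146 (0.0807) and Hbegf at 2123 (0.0468). Cells of a plate share their library preparation, and these correlations are descriptions.

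Among the receptors and ligands, none of the 6 that could be tested for level was called, while 1 (Erbb3) had an unadjusted p below 0.05, as had 11.3% of all genes, and DESeq2 called none. Erbb3 was at a lowest, median and highest plate of 27.2, 64.9 and 124 CPM in Lrig1-positive and 15.2, 41.5 and 72.9 CPM in Lrig1-negative cells, a log2 change of 0.84 ± 0.33 (edgeR, adjusted p = 0.338, higher on 6 of 8 plates). Egfr had medians of 241 and 144 CPM and a log2 change of 0.27 ± 0.23 (adjusted p = 0.716, higher on 5 of 8 plates). The changes of Erbb2, Hbegf, Tgfa and Btc were 0.49 ± 0.34, 0.53 ± 0.49, 0.41 ± 0.50 and 0.67 ± 0.87 (adjusted p = 0.635, 0.730, 0.804 and 0.815). Areg, Ereg and Epgn were too rare for this filter. Epgn was at 0.935 ± 1.55 CPM in Lrig1-positive and 12.1 ± 15.1 CPM in Lrig1-negative cells (mean ± SD of 8 plates), higher in positive cells on 0 of 8 plates and lower on 5, and without the filter its log2 change was -3.43 with an adjusted p of 0.0449.

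The share of positive cells differed at an unadjusted p below 0.05 for 4 of the 7 receptors and ligands that could be tested, all 4 more frequent in Lrig1-positive cells. Btc was found in a lowest, median and highest share of 5.56, 11.03 and 25% of the Lrig1-positive cells of a plate and of 2.27, 3.21 and 10% of the Lrig1-negative cells, and the share was higher in positive cells on 8 of 8 plates. The means were 12.7 ± 7.14% and 4.72 ± 3.21% (exact sign-flip permutation test over 8 plates, two-sided p = 0.0078, the smallest it can give, adjusted 0.241). Erbb3 was found in 58.4 ± 17.8% of Lrig1-positive and 41.9 ± 12.1% of Lrig1-negative cells, higher on 7 of 8 plates (exact p = 0.0156, adjusted 0.269). Erbb2 followed with 53.7 ± 23.3 and 37.2 ± 19.4%, also higher on 7 of 8 plates (exact p = 0.0234, adjusted 0.306), and Tgfa with 25.8 ± 15.5 and 15.9 ± 8.17%, higher on 7 of 8 (exact p = 0.0469, adjusted 0.373). Egfr was found in 76.8 ± 11.8 and 75.9 ± 9.68% (exact p = 0.789), a difference of 0.873 percentage points, Hbegf in 23.6 ± 9.78 and 19.8 ± 9.60% (higher on 4 of 8 plates, exact p = 0.391), and Areg in 6.42 ± 7.94 and 5.13 ± 4.97% (higher on 4 of 8, exact p = 0.531). Epgn and Ereg were too rare for this test. Epgn was found in 1.40 ± 1.96% of Lrig1-positive and 3.62 ± 3.58% of Lrig1-negative cells, lower on 5 plates and higher on none, and Ereg in 3.12 ± 2.86 and 1.75 ± 2.45%. This test, added after the data had been seen, gave a p below 0.05 for 12.6% of 10847 genes, 993 higher and 372 lower in Lrig1-positive cells, and no gene had an adjusted p below 0.05. Any of the 6 ligands was present in 45.4 ± 16.2% of Lrig1-positive and 31.8 ± 11.5% of Lrig1-negative cells, and all 3 receptors together in 25.1 ± 17.1 and 15.2 ± 9.56%, each higher on 7 of 8 plates.

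**Figure D3:**
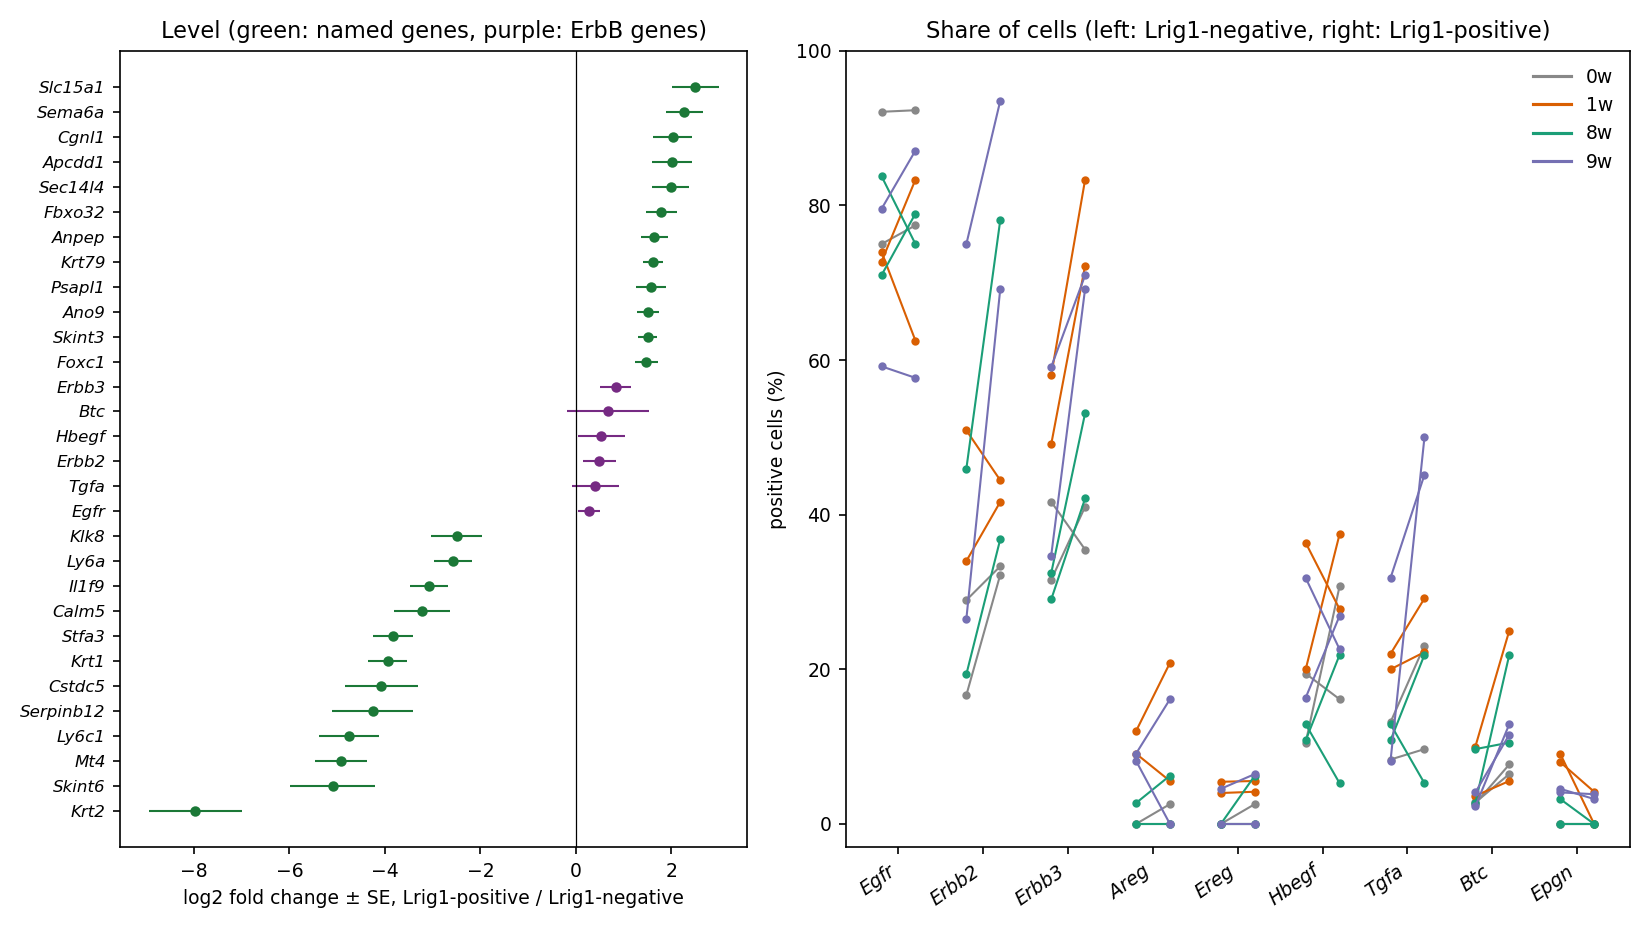
Lrig1-positive against Lrig1-negative cells. Left, log2 fold change (x axis, bars are SE, 8 plates) of the 24 named marker genes and of the 6 receptor and ligand genes tested; right, share of cells positive for each receptor and ligand (y axis, %) in Lrig1-negative and Lrig1-positive cells, with 1 line per plate. The 6 purple points lie between 0.27 and 0.84, between the called genes on either side, and the Btc lines go up on 8 of 8 plates.

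For a view by cell state, cells were clustered without the 10 genes into 11 clusters, which are described by their leading genes; a cluster has no test of its own. Cluster 4 (61 cells) was wound-activated-like, led by Krt6b, S100a9, S100a8 and Krt16, with the cycling genes Cenpf and Ccnb1 also among its first 10. Cluster 5 (71 cells) was differentiating epidermis-like, with Krt2, Krt10 and Krt1 among its first genes, cluster 8 (62 cells) bulge-like with Lgr5, and cluster 9 (61 cells) sebaceous gland-like with Scd1, Elovl6 and Mgst1. Cluster 7 (127 cells, 9 to 20 on every plate) had the highest upper follicle duct markers and was led by Rptn, Klk10 and Flg, of which Flg is a gene of cornification, so it is called by its number. Cluster 6 (48 cells) was led by Krt36 and Krt84, cluster 2 (68 cells) by Smarca1 and Ntrk2 and cluster 11 (28 cells) by Mmp3. Leading genes were ranked by the ratio of their mean level in the cluster to that in the rest of the cells. Some were carried by few cells. Krt36 and Krt84 were detected in 10.4 and 6.25% of cluster 6, and Smarca1 in 2.94% of cluster 2 (Ntrk2 in 72.1%). Mmp3 was detected in 32.1% of cluster 11, and Rptn, Klk10 and Flg in 11.02, 33.9 and 4.72% of cluster 7. Cluster 1 (69 cells) had a median of 30143 counts a cell, the fewest of the 11, so its shares rest on 22 thinned cells. The clusters were spread unevenly over the time points (46 of 68 cells of cluster 2 and 37 of 61 cells of cluster 9 came from 0w, and 33 of 61 cells of cluster 4 from 1w), so that cluster and time point cannot be told apart in the values pooled over plates.

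Lrig1 was found in 71.1% of the thinned cells of cluster 7 (exact 95% interval 61.8 to 79.2%) and in 65.6% of cluster 2 (52.3 to 77.3%). Clusters 6 and 9 had 48.6 and 47.2%, while clusters 4 and 5 had 12.7 and 5.88%. Egfr was broad, with 64.7 to 90.2% positive cells in every cluster. Its level was highest in the sebaceous gland-like cluster 9, at 438 ± 128 CPM (SD, n = 4 plates with at least 5 cells), against 79.0 ± 36.2 CPM in the wound-activated-like cluster 4 (n = 4). For cluster 9 these were the plates of 0w and 8w. For cluster 4 they were both plates of 1w and plate 2 of 8w and of 9w. Cluster and time point thus cannot be told apart in this difference either. Erbb2 and Erbb3 went together, with the highest Erbb2 share in cluster 6 (86.5%) followed by cluster 7 (63.2%), and the highest Erbb3 share in cluster 7 (78.9%) followed by cluster 6 (73.0%). Both were least frequent in clusters 1 and 9 (22.7 and 26.4% for Erbb2, 22.7 and 24.5% for Erbb3).

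Epgn, Areg, Hbegf and Ereg were most frequent in cluster 4, Btc in cluster 7 and Tgfa in cluster 6. Epgn was found in 20% of cluster 4 (10.4 to 33.0%) and 15% of cluster 11 (3.21 to 37.9%), in 2.27% of cluster 8 and 1.75% of cluster 7, and in none of the thinned cells of the other 7. Areg was found in 21.8% of cluster 4, 15% of cluster 11, 14.0% of cluster 7, 5.41% of cluster 6 and 1.89% of cluster 3. Hbegf was most frequent in cluster 4 (52.7%), then in cluster 7 (38.6%) and cluster 6 (29.7%). Ereg was found in 7.27% of cluster 4 (4 of 55 cells), 7.02% of cluster 7 (8 of 114) and at most 5% of any other. Btc was found in 28.1% of cluster 7 (20.1 to 37.3%) and in at most 6.82% of any other cluster, while Tgfa was spread over clusters 6, 11 and 7 (43.2, 40 and 35.1%). In cluster 7, Lrig1, all 3 receptors and the ligands Hbegf, Tgfa and Btc were each present in over 25% of the cells. The same held in cluster 6 for all of these genes except Btc, which was found in 5.41% of its cells.

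**Figure D4:**
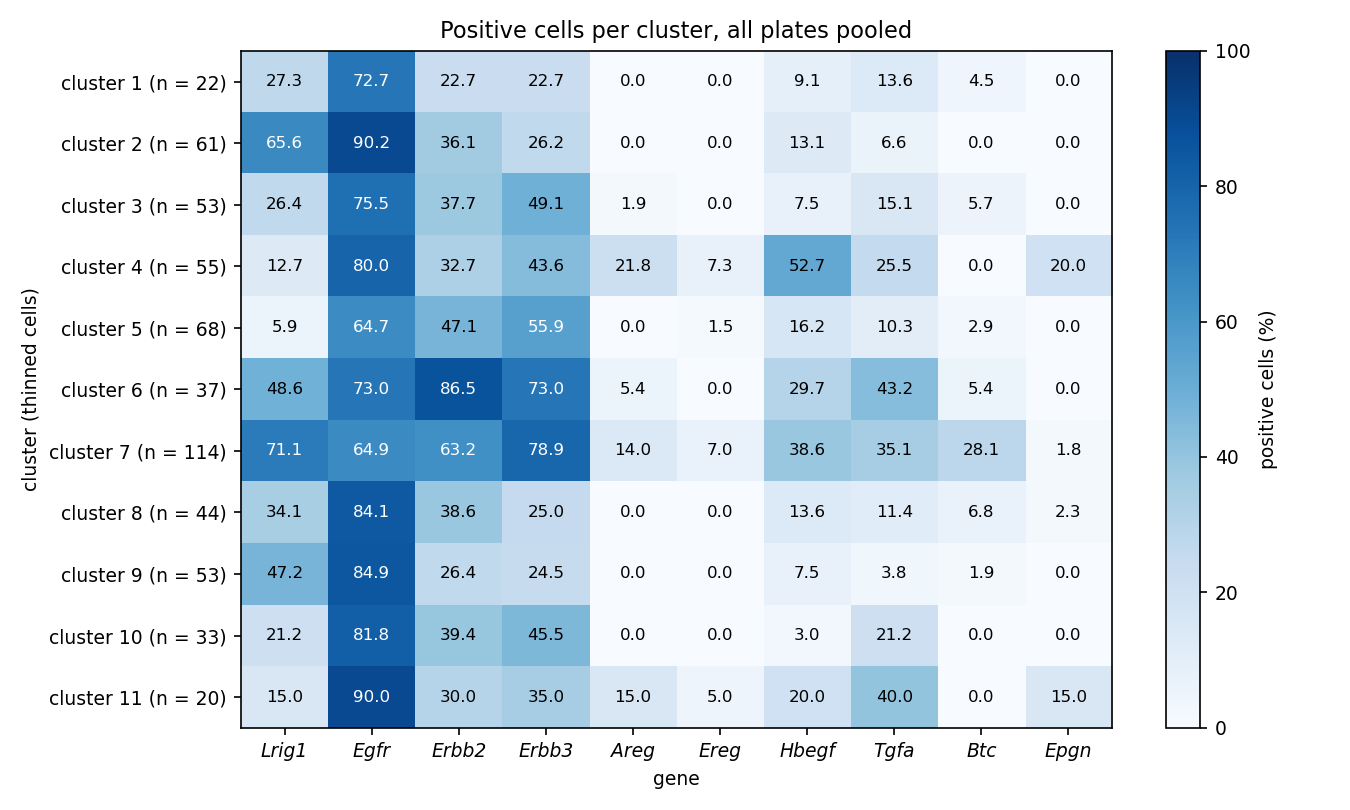
Share of thinned cells with at least 1 count of each gene (x axis) in each of the 11 clusters (y axis, with the number of thinned cells), all plates pooled; the colour scale runs from 0 to 100%. Lrig1 and Btc were most frequent in cluster 7 (71.1 and 28.1%) and Epgn in cluster 4 (20%).

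In cluster 7 the share of Lrig1-positive cells was 66.7 and 55.6% on the plates of 0w, 76.5 and 68.4% at 1w, 83.3 and 44.4% at 8w, and 73.7 and 82.4% at 9w, from 9 to 19 thinned cells a plate. In the other 10 clusters together it was 47.7 and 44.8% at 0w, 8.93 and 20% at 1w, 38.6 and 36.6% at 8w, and 30.4 and 20.7% at 9w. Outside cluster 7 the 4 plates taken a week after a wound thus lay below the 4 other plates. Whether this order holds at other thinning depths was not tested, and the share of all genes with the same order was not counted. Over all clusters together, the plates of 1w overlapped with those of 8w and 9w without thinning and at the lower depth. Inside cluster 7 both plates of 0w lay below those of 1w and 9w, and the plates of 8w spanned the range of all others. The order inside cluster 7 rests on few cells, since 0w plate 1 had 8 of 12 positive and 1w plate 2 had 13 of 19. The level of Lrig1 in cluster 7 was 0.75 ± 0.84 higher at 1w and 1.35 ± 0.85 higher at 9w than at 0w on the log2 scale (edgeR, adjusted p = 0.947 and 0.796). How far a change in the kinds of cells on a plate contributes to the shares outside cluster 7 was not tested.

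**Figure D5:**
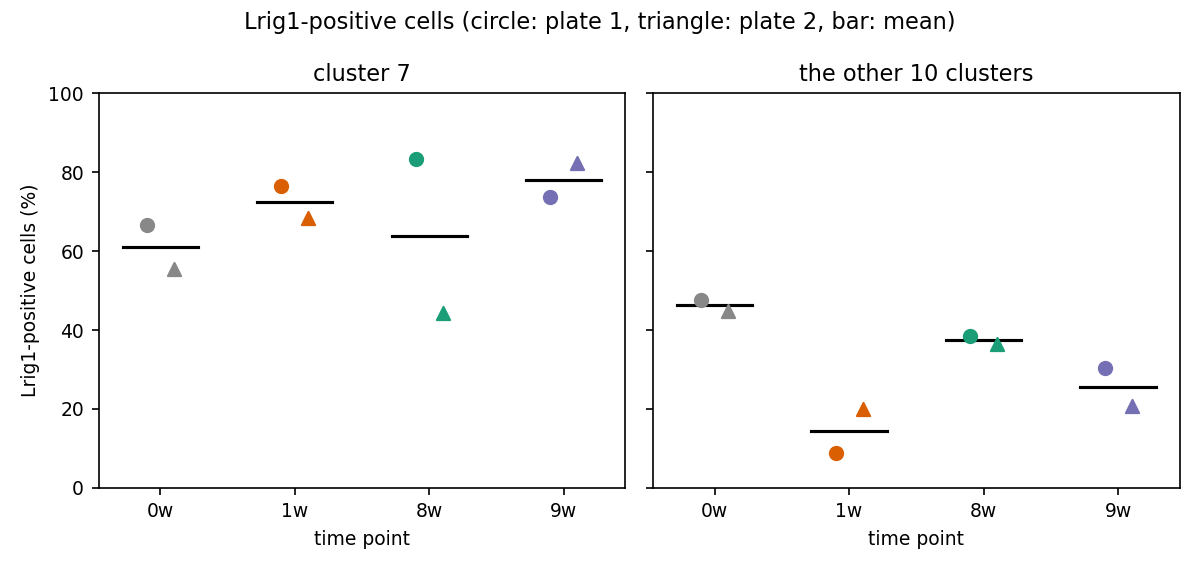
Share of Lrig1-positive thinned cells (y axis, %) by time point (x axis) in cluster 7 (left) and in the other 10 clusters (right); points are plates and bars are means of 2 plates. On the right, the plates of 1w and 9w (8.93 to 30.4%) lie below those of 0w and 8w (36.6 to 47.7%). On the left, the plates of 8w (44.4 and 83.3%) span all others. Other thinning depths were not tested for this split.

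The wider pathway was read through 5 lists of genes. Of the 53 genes of these lists in the table, 52 were tested and edgeR called none in any comparison, while DESeq2 called Nrg4, Dusp6 and Spred1 at 1w and Dusp4, Etv5, Fosl1 and Spred1 at 9w against 0w, Dusp4, Etv5 and Fosl1 at 9w against 8w, and none in the other 2 comparisons. These are 3, 4 and 3 of 52 genes to which DESeq2 gave an adjusted p, and over the whole table it called 5.29, 5.01 and 2.15% in the same comparisons. Dusp6, Spred1 and Etv5 were named after their values had been seen. Of the other receptors and ligands, 3 of 6 were in the table and 2 were tested. Nrg4, a neuregulin, was at 4.05 and 27.3 CPM at 0w, 1.31 and 0.644 CPM at 1w, 4.10 and 32.3 CPM at 8w, and 6.51 and 9.01 CPM at 9w, with a log2 change of -4.00 ± 1.19 at 1w and -1.02 ± 1.05 at 9w against 0w (edgeR, adjusted p = 0.201 and 0.758). At 1w DESeq2 gave Nrg4 an adjusted p of 0.00377, and its log2 change ranged from -6.22 in cluster 7 alone to -1.96 with a stricter filter on cells. Egf itself was at 0.0652 to 3.28 CPM on the 8 plates, with changes of 1.34 ± 1.48 and -0.57 ± 1.49 (adjusted p = 0.812 and 0.922). Of the 7 genes for ligand shedding, 5 were above 0 at 1w and 4 at 9w. The highest values were those of the metalloproteinases Adam12 at 1w (2.26 ± 0.86, adjusted p = 0.329) and Adam15 at 9w (2.13 ± 0.70, adjusted p = 0.261), and the lowest those of the inactive rhomboid Rhbdf1 (-1.21 ± 0.69 and -0.69 ± 0.68, adjusted p = 0.568 and 0.745).

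Receptor inhibitors (11 genes, Lrig2 and Lrig3 among them) had medians of 0.02 and 0.07 at 1w and 9w against 0w, beside -0.04 and 0.05 over all genes. Their highest and lowest values were 0.75 ± 0.64 for Socs5 and -0.85 ± 0.67 for the ubiquitin ligase Cblb at 1w, and 0.98 ± 0.85 for Cblc and -1.06 ± 0.67 for Cblb at 9w (edgeR, adjusted p from 0.578 to 0.736). The 16 adaptors and kinases of the RAS-ERK cascade had medians of 0.24 and 0.38, with Hras highest (1.03 ± 0.51) and Shc1 lowest (-1.12 ± 0.79) at 1w, and Gab1 highest (1.72 ± 0.58) and Braf lowest (-0.92 ± 0.69) at 9w (adjusted p from 0.266 to 0.668).

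The 16 targets and feedback genes of ERK signalling had mostly negative changes against 0w. Their median log2 change was -1.54 at 1w, -0.96 at 8w and -1.10 at 9w against 0w, with 12 of 16 below 0 in each of these comparisons, which share the 0w plates. Over all genes 51.8, 46.5 and 48.0% were below 0 in the same comparisons. For 9w against 8w, which leaves the 0w plates out, the median of the list was -0.18, with 10 of 16 below 0 beside 49.5% of all genes. An unadjusted p below 0.05 was reached by 6 of 16 at 1w, 0 of 16 at 8w and 5 of 16 at 9w against 0w, beside 11.5, 6.47 and 12.6% of all genes, and by 3 of 16 for 9w against 8w, beside 7.94%. None was called by edgeR. The dual-specificity phosphatase Dusp4 was at 1.19 and 10.2 CPM at 0w, 0.654 and 0.410 CPM at 1w, 0.720 and 5.02 CPM at 8w, and 0.140 and 0.0540 CPM at 9w (log2 change -3.41 ± 1.37 and -5.81 ± 1.59 at 1w and 9w, edgeR adjusted p = 0.360 and 0.187). Without plate 2 of 0w, the plate with the highest level, these changes were -1.17 and -3.57. The AP-1 gene Fosl1 went the other way, with 0.104 and 0 CPM at 0w, 1.76 and 1.29 CPM at 1w, 0 and 0 CPM at 8w, and 7.84 and 2.64 CPM at 9w (4.68 ± 1.49 and 6.45 ± 1.57, adjusted p = 0.235 and 0.164; 7.63 and 9.42 without plate 1 of 0w). DESeq2 gave Dusp4 and Fosl1 at 9w adjusted p-values of 0.00353 and 0.00268.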

How the data were processed

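Single tdTomato+ keratinocytes were profiled by the authors with a modified Smart-seq2 protocol, which has no molecular identifiers. Per the labels and methods, reads were mapped by the authors with Salmon 0.13.1 to mouse transcripts (GRCm38), cells with few genes or mostly mitochondrial reads were removed, and the deposited values are estimated counts per gene. How transcripts were summed to genes is not given in the sources used here. Across the 696 cells the fewest genes were 1001 and the highest mitochondrial share was 49.39%. Estimated counts (96.6% of them whole) were summed per plate and rounded. Plates, named by time point and replicate number in the labels, were the replicates, 2 for each of 4 time points. Across all genes, edgeR 4.0.16 in R 4.3.3 (quasi-likelihood test, TMM scaling, filterByExpr, Benjamini-Hochberg adjustment) was fitted to all 8 plates with the time point as the only term; 5 comparisons were made. DESeq2 1.42.0 was an alternative. Plates with the same number deviated together from their time point's mean (correlations of 0.168 to 0.257 for all 6 pairs of time points), so a block on the number was tried as well; the labels do not say whether the number stands for one of the 2 experiments named in the methods. For shares of positive cells and for Lrig1-positive against Lrig1-negative cells, each cell was thinned once to 50000 counts. Clusters were made with scanpy 1.11.5 (2000 variable genes, 20 components, 15 neighbours, Leiden resolution 1) without the 10 genes; doublets were not removed. The fits and the share test were tested on simulated data. Genes named among Lrig1 markers were up to 12 called genes on either side, taken by size of change, with an average log2 CPM of at least 4, the same direction on at least 7 of 8 plates, and no predicted gene models or pseudogenes; of each pathway list, the extreme genes of both early healing times relative to unwounded skin are named. Changes at 8w, and of 9w against 8w, are given for genes whose plates did not overlap. The 10 genes, the lists and the tests were chosen with earlier results of these data known. Alternatives were other filters, scalings, cell limits, thinning depths and each plate left out. Fits of cluster 7 alone, fits without the deepest cell of each plate and the share test of Lrig1-positive cells were added after the data were seen.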

Additional observations from a re-analysis of the deposited data

How the results depend on the processing

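The number of genes called at 1w against 0w, 73, was 732 with DESeq2, 236 with the replicate block, 24 with a stricter filter on cells and 0 in cluster 7 alone, and 8 to 93 when a plate was left out. At 9w against 0w, 37 became 693, 96, 9 and 0 in the same order, and 1 to 36. At 8w against 0w, 0 became 163 with DESeq2, 4 with every cell scaled equally, 3 with the replicate block, and 0 to 2 without a plate. For 9w against 8w, 1 became 291 with DESeq2, 8 with the replicate block, 5 with no filter on low counts, 5 with the stricter filter on cells, 0 in cluster 7 and 0 to 7 without a plate. For the difference between the healings, 0 became 78, 3 with the replicate block, 1 with equal scaling, and 0 to 2. Markers of Lrig1-positive cells numbered 68 and became 328 with DESeq2, 164 with no filter, 27 with cells at full depth, 9 with no block on the plate and 19 to 104 without a plate. Of the 24 named, 11 to 24 stayed called without a plate, 11 at full depth, 15 at 25000 counts and 6 with no block on the plate. With at least 5 counts for a positive cell, 893 genes had a share that differed, against 1448.

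Of the 10 genes, the replicate block changed 1 call, that of Epgn at 1w, and no other. Of the uncalled log2 changes given above, those with another sign in some setting follow; changes of other comparisons are not listed. In cluster 7, Lrig1 was 0.75, Erbb2 -0.56 and Hbegf -0.63 at 1w, Areg -1.94, Ereg -0.015, Hbegf -1.78 and Btc -0.20 at 9w against 0w, and Erbb3 -0.17 and Areg -1.41 against 8w. With equal scaling, Erbb2 was -0.017 at 1w, and Lrig1 -0.36 and Egf 0.36 at 9w. With the stricter filter on cells, Lrig1 was -0.28, Btc -0.0001, Nrg4 0.25 and Braf 0.28 at 9w. Between Lrig1-positive and Lrig1-negative cells, Hbegf was -0.078 at 25000 counts and Tgfa -0.074 at full depth. Leaving out a plate gave Erbb2 -0.36 to 0.74 and Egf -1.09 to 2.20 at 1w, and Lrig1 -0.17 to 0.42, Ereg -7.73 to 6.07, Egf -1.13 to 0.30, Nrg4 -1.85 to 0.92 and Cblc -0.19 to 1.92 at 9w. Of 47 log2 changes of single genes between time points, 33 moved by over 1.5 times (in fold) when some plate was left out. The cause was not tested. With 2 plates a time point, an exact permutation test of 1 gene between 2 time points cannot go below p = 0.333.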
